A study of Mus musculus with 6 samples.

Results

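Imprinted genes are described here in the retina of mouse embryos: 37 autosomal genes known to be expressed mainly from 1 parental chromosome in mouse. They were chosen by name, from a list drawn up when the fold changes and p-values of this same comparison were known, so their values are given as a description and no count over them is offered as support for the list. Of the 37, 36 were found by matching identifiers to names through the authors' deposited table, among 55487 counted genes. Of these, 35 passed the filter on low counts, which left 17275 genes to test. Phlda2, a growth-restraining gene of the placenta, is not named in that table and had 1, 3 and 0 counts in the libraries cKO 1 to 3, against 1, 1 and 0 in control 1 to 3, as labelled. Rtl1, a retrotransposon-derived gene, was found but not tested, with 2, 1 and 1 counts in cKO-labelled libraries and 4, 3 and 8 in the control-labelled libraries.

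The study compared retinas of C57BL/6 embryos at embryonic day 16.5 by bulk RNA sequencing, to ask what loss of the forkhead transcription factor Foxp1 does to gene expression. The 3 animals labelled cKO had the genotype Foxp1 fl/fl, Six3-Cre, in which a Cre driven by Six3 sequence is active in the developing retina. The 3 animals labelled control had Foxp1 fl/fl and no Cre, so both groups carried the floxed alleles. All 6 were littermates, and the retinas of both eyes of an animal made 1 library. Values for each group are listed in the order of library number, 1 to 3, in CPM, the read count scaled to the size of the library. A log2 fold change above zero means a higher level in the libraries labelled cKO, for conditional knockout.

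Imprinted genes keep a mark from the parent of origin, laid down in the germ line as DNA methylation at control regions and kept through embryonic life, so that only the maternal or the paternal copy is transcribed. Most lie in clusters in which protein-coding genes and long noncoding RNAs share a control region. Many act on growth, on the placenta or in neurons, and the cyclin-dependent kinase inhibitor Cdkn1c and the zinc finger gene Plagl1 are known to limit cell numbers in the mouse retina. A count per gene adds both parental copies together, so imprinting itself was not measured here.

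The labels are in doubt. Foxp1, the deleted gene, was at 72.4, 75.5 and 68.8 CPM in cKO-labelled libraries, against 50.8, 41.1 and 46.2 CPM in control-labelled libraries, a log2 fold change of 0.65. The authors' deposited table gives it -0.60, with an adjusted p of 6.02e-11, for cKO against control. The labelled sexes were female, male and male in cKO 1 to 3, and female, female and male in control 1 to 3. Sex-linked genes matched the labelled sex in 4 of 6 libraries, and in 6 of 6 the labelled sex of the same number in the other group. Of the 35 tested imprinted genes, 33 had signs opposite to those in the authors' deposited table. The 2 others were H19 (log2 fold change -0.05) and Kcnq1ot1 (-0.02). Among all tested genes, 135 passed an adjusted p of 0.05 in edgeR, and all 135 had the opposite sign in that table. Every direction below therefore holds for the libraries as labelled, and would turn around if the labels of the groups were exchanged. Total counts were 23707761 to 25714620 per library. All 12 retina markers had counts in every library, with summed levels of 3959 to 4245 CPM in cKO-labelled libraries and 3925 to 4100 CPM in control-labelled libraries.

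The promoters around Magel2, the imprinted gene that passed the test, are shown first, because its neighbours sit within a short stretch of chromosome 7 and none of them passed the test. Each sequence runs 5′ to 3′ on the gene's own strand, from 250 bases before the start of the gene to 50 after it, from RefSeq on GRCm38.p6. Capitals mark CG dinucleotides, the sites of the methylation that carries imprints. The windows are chr7:62376729-62377028 on the plus strand for Magel2, chr7:62348027-62348326 on the plus strand for Ndn, chr7:62420104-62420403 on the minus strand for Mkrn3 and chr7:62464461-62464760 on the minus strand for Peg12. Peg3, chr7:6730370-6730669 on the minus strand, is from another cluster of chromosome 7 and is shown because its groups did not overlap either.
Magel2: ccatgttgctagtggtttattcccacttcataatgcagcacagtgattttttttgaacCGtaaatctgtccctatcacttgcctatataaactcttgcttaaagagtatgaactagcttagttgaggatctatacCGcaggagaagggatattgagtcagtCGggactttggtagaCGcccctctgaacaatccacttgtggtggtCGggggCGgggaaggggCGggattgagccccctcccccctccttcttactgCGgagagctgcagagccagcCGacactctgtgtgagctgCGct
Ndn: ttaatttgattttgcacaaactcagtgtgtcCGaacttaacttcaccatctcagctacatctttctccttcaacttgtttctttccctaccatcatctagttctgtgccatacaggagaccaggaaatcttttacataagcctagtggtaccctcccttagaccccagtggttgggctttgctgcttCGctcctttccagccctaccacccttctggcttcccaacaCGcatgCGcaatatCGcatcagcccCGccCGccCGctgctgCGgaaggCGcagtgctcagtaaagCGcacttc
Mkrn3: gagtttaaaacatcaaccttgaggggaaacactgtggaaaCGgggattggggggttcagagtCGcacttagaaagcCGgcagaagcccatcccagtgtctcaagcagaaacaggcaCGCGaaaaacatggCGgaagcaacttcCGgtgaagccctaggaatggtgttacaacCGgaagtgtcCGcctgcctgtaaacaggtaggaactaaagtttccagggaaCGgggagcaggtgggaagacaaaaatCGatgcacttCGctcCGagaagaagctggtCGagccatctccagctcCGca
Peg12: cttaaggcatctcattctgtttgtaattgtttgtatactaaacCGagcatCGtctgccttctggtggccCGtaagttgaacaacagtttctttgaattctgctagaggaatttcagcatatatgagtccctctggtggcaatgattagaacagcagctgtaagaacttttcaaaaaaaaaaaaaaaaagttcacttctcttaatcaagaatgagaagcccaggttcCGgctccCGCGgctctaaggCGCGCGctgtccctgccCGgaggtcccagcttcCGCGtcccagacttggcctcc
Peg3: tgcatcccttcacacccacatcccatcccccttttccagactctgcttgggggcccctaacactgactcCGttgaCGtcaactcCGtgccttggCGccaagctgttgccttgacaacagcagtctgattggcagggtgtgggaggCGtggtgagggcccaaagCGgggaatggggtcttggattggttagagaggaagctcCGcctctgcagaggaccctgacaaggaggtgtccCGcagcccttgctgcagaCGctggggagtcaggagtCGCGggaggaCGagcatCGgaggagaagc

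These windows hold 10 CG dinucleotides for Magel2, 11 for Ndn, 15 for Mkrn3, 12 for Peg12 and 13 for Peg3. Across the 30 imprinted genes with a window used here, 21 of 48 windows (43.8%) were rich in CG, taken as an observed-to-expected ratio of at least 0.6 with at least 50% G and C. Impact was left out of this count. Several genes have more windows than others, and some windows of a gene overlap, as in Gnas and Mest, so the windows are not independent. Of all 32851 promoter windows, 33.5% met that rule. The median was 12.5 CG in the windows of imprinted genes and 7 in all windows. The windows of Peg3 and Usp29, which start on opposite strands, share 263 bases. The letters TGTTTAC, a forkhead core motif read on both strands, stand in 3 of the 48 windows (6.25%), those of Nap1l5, Mkrn3 and Dlk1, and in 3.65% of all windows. A match is a run of letters and not a measured binding site.

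Levels per length of exon spread widely. Nnat, which encodes the neuronal membrane proteolipid neuronatin, stood first at 669 ± 9.34 CPM per kb in cKO-labelled libraries and 606 ± 17.1 CPM per kb in control-labelled libraries (SD, n = 3 each). Grb10, an adaptor that dampens insulin receptor signalling, followed at 112 ± 11.4 CPM per kb in cKO-labelled libraries and 119 ± 5.69 CPM per kb in control-labelled libraries. The noncoding RNA H19 came next, at 102 ± 17.4 CPM per kb in cKO-labelled libraries and 106 ± 20.8 CPM per kb in control-labelled libraries. Gnas, which encodes a G protein subunit, had 97.0 ± 3.80 CPM per kb in cKO-labelled libraries and 96.3 ± 4.02 CPM per kb in control-labelled libraries. The neighbours Grb10 and H19, and likewise H19 and Gnas, differed by less than the SD of H19 in both groups. Cdkn1c, Plagl1, Ndn, Snrpn and Mest followed, with group means between 53.4 and 87.1 CPM per kb. At the low end, Dlk1, Asb4, Zim1 and Airn had group means of at most 0.686 CPM per kb. Of the 37 genes, 21 were above the median level of tested genes. Together they took 0.600 to 0.635% of all counts in cKO-labelled libraries and 0.612 to 0.624% in control-labelled libraries.

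**Figure D1:**
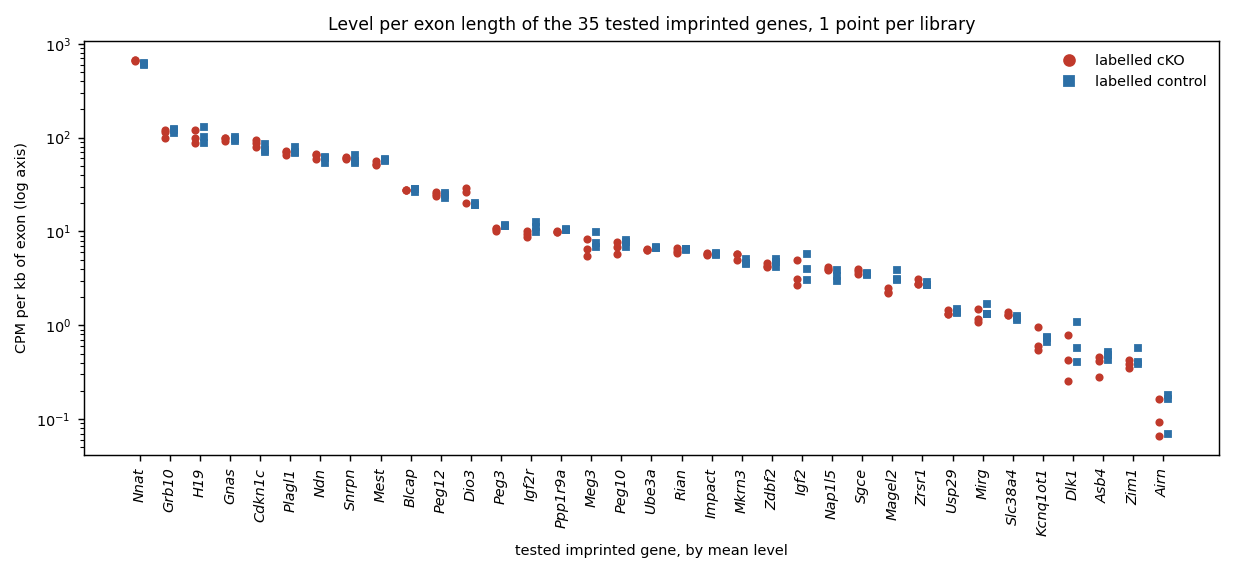
Level per length of exon of the 35 tested imprinted genes on a log axis, in CPM per kb, with 1 point per library and the cKO-labelled libraries left of those labelled control. Nnat stands above the others at 606 to 669 CPM per kb in the group means, and Airn is last.

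Between the labelled groups most imprinted genes lay close to zero difference. Of the 35 tested, 13 had a higher and 22 a lower mean in cKO-labelled libraries, with a median log2 fold change of -0.06, where all tested genes had a median of 0.00. In edgeR 1 of the 35 (2.86%) passed an adjusted p of 0.05 over all genes, where 0.781% of all tested genes passed in either direction and 0.486% with a lower and 0.295% with a higher level. Under other settings of the test, 4 passed with no filter on low counts, where 2.47% of all genes passed. With the labelled sexes exchanged between groups as a covariate, 2 passed, where 4.32% of all genes did. At an unadjusted p under 0.05 there were 8 (22.9%), where 16.5% of all tested genes passed. The libraries of the groups did not overlap for 4 genes (11.4%) that were lower in cKO-labelled libraries, where 9.3% of all tested genes did so, and for 3 (8.57%) that were higher, where 10.8% did so. In bulk tissue, fewer cells that express a gene and less RNA in each cell cannot be told apart.

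**Figure D2:**
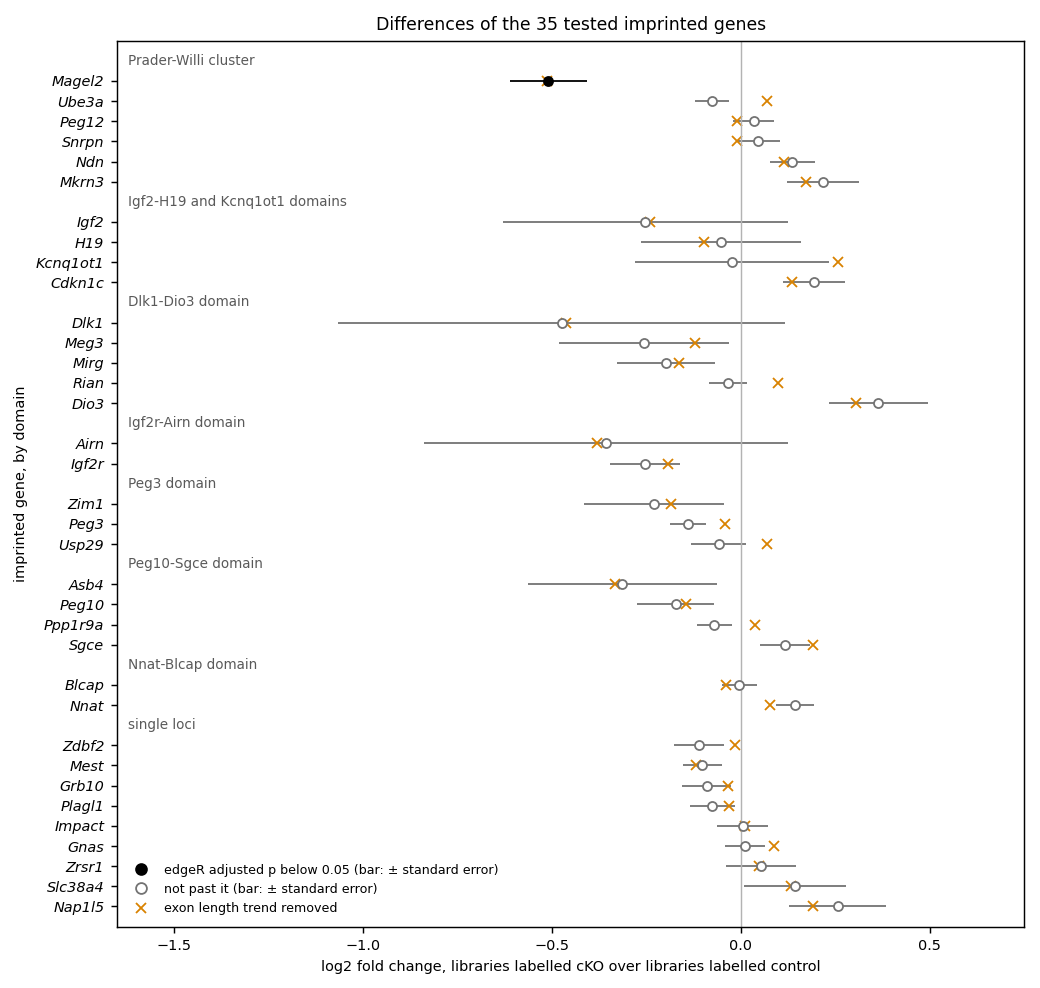
Log2 fold change of the 35 tested imprinted genes by domain, libraries labelled cKO over libraries labelled control, with bars of ± 1 standard error and crosses for the value after removal of the exon length trend. Magel2, the filled point at -0.51, is the gene past an adjusted p of 0.05.

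Magel2 fell in cKO-labelled libraries. The gene is expressed from the paternal copy and encodes a MAGE family protein that joins an E3 ubiquitin ligase on endosomes and aids recycling by the retromer. In humans its truncation causes Schaaf-Yang syndrome, and it lies in the region deleted in Prader-Willi syndrome. It is annotated at chromosome 7, 62377010 to 62381640, plus strand, mm10 (ENSMUSG00000056972), with 4631 bases of exon.

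Magel2 had 297, 248 and 268 counts in cKO-labelled libraries, against 426, 356 and 336 in control-labelled libraries. That came to 11.6, 10.3 and 10.6 CPM in cKO-labelled libraries, against 17.8, 14.3 and 14.2 CPM in control-labelled libraries. The library labelled control 1 was the highest of the 6, and the groups did not overlap. The means were 10.8 ± 0.69 CPM in cKO-labelled libraries and 15.4 ± 2.06 CPM in control-labelled libraries (SD, n = 3 each), which gives a log2 fold change of -0.51 ± 0.10 (standard error; adjusted p 0.029, edgeR quasi-likelihood test). No annotated exon of another gene lay on its exon. With the exon length trend of each library removed, the log2 fold change was again -0.51, with an edgeR adjusted p of 0.026.

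The sign of Magel2 held in every setting, and the call did not. With all 6 libraries kept it ended without robust estimation (log2 fold change -0.51, edgeR adjusted p 0.114) and in limma-voom (-0.50, adjusted p 0.107). Without the library labelled control 1 the log2 fold change was -0.39 and the edgeR adjusted p 0.128. Without the library labelled cKO 2 these were -0.48 and 0.218, and without cKO 3 they were -0.49 and 0.118. Without both libraries numbered 2, which carry the mismatched sex labels, they were -0.53 and 0.584. The gene passed without control 2, without control 3 and without cKO 1, and over all settings the adjusted p ran between 1.59e-04 and 0.584. The authors' deposited table lists Magel2 at a log2 fold change of 0.57 for cKO against control, the opposite direction, with no adjusted p. Its mean normalized count there is 322, and the lowest in the table with an adjusted p is 658.

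None of the 5 other genes of the Prader-Willi cluster passed the test, and their differences from Magel2 were not tested. Ndn, which encodes necdin, another MAGE protein, of neurons that have left the cell cycle, ends 26.7 kb before Magel2. It had 244, 249 and 221 CPM in cKO-labelled libraries, against 198, 224 and 228 CPM in control-labelled libraries, with overlapping groups and log2 fold change 0.14 (edgeR adjusted p 0.254). Mkrn3, which lies 36.0 kb beyond Magel2 and encodes a ring finger protein whose loss in humans leads to early puberty, had 14.6, 14.7 and 12.8 CPM in cKO-labelled libraries, against 11.8, 11.4 and 12.9 CPM in control-labelled libraries. Its log2 fold change was 0.22 (adjusted p 0.246, edgeR), so both flanking genes had means on the other side of zero from Magel2.

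Peg12, a relative of the Frat genes of Wnt signalling, lies 41.7 kb beyond Mkrn3. It had 69.2, 66.6 and 62.3 CPM in cKO-labelled libraries, against 60.3, 67.9 and 65.1 CPM in control-labelled libraries. Snrpn, a component of the splicing machinery in neurons, had 129, 127 and 133 CPM in cKO-labelled libraries, against 115, 123 and 140 CPM in control-labelled libraries. In both genes the groups overlapped, and the log2 fold changes were 0.03 for Peg12 (edgeR adjusted p 0.820) and 0.05 for Snrpn (edgeR adjusted p 0.772). Of the exon bases of Snrpn, 27.3% also belong to the gene model Gm38393 on the same strand, so its count is uncertain.

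Ube3a, the ubiquitin ligase lost in Angelman syndrome, is transcribed from the maternal copy in neurons. It had 132, 133 and 131 CPM in cKO-labelled libraries, against 141, 139 and 138 CPM in control-labelled libraries. The groups did not overlap, and the log2 fold change was -0.08 (adjusted p 0.414, edgeR). It is one of the longest of the 37, with 20626 bases of exon, and after removal of the length trend its log2 fold change was 0.07. Antisense transcripts overlap 8.74% (Snhg14) of its exon bases, and whether counting used the strand is not given in the sources used here.

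**Figure D3:**
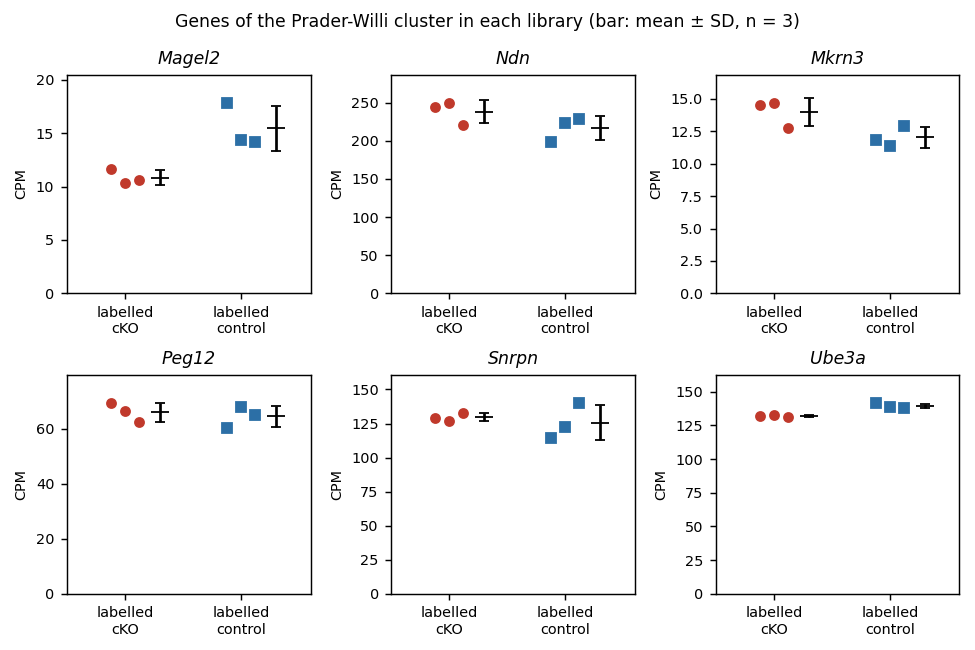
Level of 6 genes of the Prader-Willi cluster in CPM, 1 point per library with the mean and SD (n = 3) beside them, libraries labelled cKO on the left and labelled control on the right. The groups are apart for Magel2, with means of 10.8 CPM in cKO-labelled and 15.4 CPM in control-labelled libraries, and by a small amount for Ube3a, and they overlap for the other 4 genes.

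Igf2, H19 and Dlk1 varied between libraries far more than between the labelled groups. Igf2 encodes a fetal growth factor from the paternal copy, H19 is the maternal noncoding RNA beside it, and Dlk1 encodes a transmembrane relative of the Notch ligands. Igf2 had 28.5, 15.3 and 18.01 CPM in cKO-labelled libraries, against 17.4, 23.0 and 33.3 CPM in control-labelled libraries. H19 had 298, 214 and 243 CPM in cKO-labelled libraries, against 215, 252 and 316 CPM in control-labelled libraries. Dlk1 had 4.46, 1.46 and 2.41 CPM in cKO-labelled libraries, against 2.30, 3.26 and 6.07 CPM in control-labelled libraries.

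All 3 genes were highest in the library labelled control 3, then in cKO 1, control 2, cKO 3 and control 1, and lowest in cKO 2. Of the exon bases of Igf2, 62.8% also belong to the gene model Gm49394 on the same strand, so its count is uncertain. The highest library exceeded the lowest 2.17-fold for Igf2, 1.48-fold for H19 and 4.17-fold for Dlk1. The log2 fold changes were -0.25 (standard error 0.38) for Igf2, -0.05 (0.21) for H19 and -0.47 (0.59) for Dlk1, with edgeR adjusted p-values of 0.822, 0.944 and 0.777. For Dlk1 the value without the library labelled control 3 was 0.00. The biological coefficient of variation, the spread between replicates beyond counting error, was 31.4%, 17.8% and 48.4% for these genes, where the median of all tested genes was 8.72%.

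The shared order was noticed after the values were seen. It was shared by 23 of the 17275 tested genes (0.133%). That is about the share each order would have if all orders of the 6 libraries were equally frequent. The 35 imprinted genes showed 32 distinct orders. Among the marker lists of other tissues, 1 of 9 skeletal muscle markers (Myh3, an embryonic myosin) and 1 of 11 markers of mesenchyme around the eye (Prrx1) had that order, and none on the other lists. Myh3 was at 4.03, 2.04 and 3.48 CPM in cKO-labelled libraries, against 3.31, 3.59 and 8.90 CPM in control-labelled libraries.

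Marker lists of tissues beside the retina also varied between libraries. The 9 skeletal muscle markers summed to 33.5, 21.9 and 29.9 CPM in cKO-labelled libraries, against 33.1, 34.6 and 70.0 CPM in control-labelled libraries, and 8 of the 9 had a count in every library. The lens markers summed to 63.3, 24.6 and 262 CPM in cKO-labelled libraries, against 66.7, 260 and 928 CPM in control-labelled libraries. The markers of mesenchyme and fibroblasts around the eye summed to 129, 81.7 and 159 CPM in cKO-labelled libraries, against 46.7, 101 and 97.2 CPM in control-labelled libraries. The library labelled control 3 was highest for muscle and lens and cKO 2 was lowest for both, as for Igf2, H19 and Dlk1. Second came control 2 for muscle and cKO 3 for lens, where the 3 genes had cKO 1. Other lists had other extremes. Pigment epithelium markers (2.54-fold from lowest to highest) and pericyte markers were highest in control 2 and lowest in cKO 3. Erythroid markers (2.42-fold) were highest in cKO 1 and lowest in control 1. The mesenchyme list was highest in cKO 3, where Col1a1 and Col1a2 lead it. Its 9 other markers summed to 31.5, 11.8 and 17.5 CPM in cKO-labelled libraries, against 13.6, 26.7 and 25.4 CPM in control-labelled libraries, highest in cKO 1 and lowest in cKO 2. Their part in the levels of the 3 genes was not tested.

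**Figure D4:**
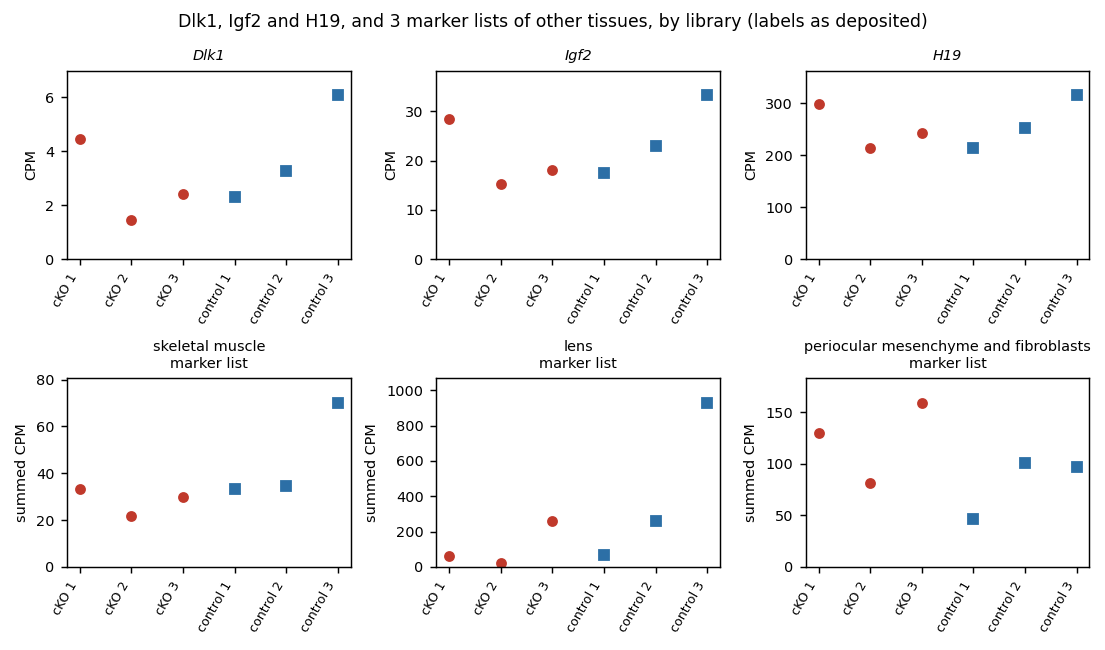
Levels by library of Dlk1, Igf2 and H19 in CPM (top) and summed CPM of 3 marker lists of tissues beside the retina (bottom), with libraries labelled cKO left of those labelled control. Control 3 is highest and cKO 2 lowest in the 3 genes and in the muscle and lens lists.

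Of the 8 endothelial markers, Kdr, a receptor of vascular endothelial growth factor, took 94.0% of the summed level. Kdr was at 283, 283 and 291 CPM in cKO-labelled libraries, against 321, 335 and 311 CPM in control-labelled libraries, with no overlap and an edgeR adjusted p of 0.0911. The 7 other endothelial markers summed to 19.6, 17.5 and 18.4 CPM in cKO-labelled libraries, against 18.9, 21.6 and 20.5 CPM in control-labelled libraries, with overlapping groups. Of the 5 endothelial markers tested, 3 had a higher and 2 a lower mean in cKO-labelled libraries.

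The Kcnq1ot1 domain, grouped here with that of Igf2 and H19, holds Cdkn1c, the maternal p57 inhibitor of the cell cycle. Cdkn1c had 193, 177 and 163 CPM in cKO-labelled libraries, against 150, 142 and 174 CPM in control-labelled libraries. Cdkn1c in control 3 lay above cKO 3, so the groups overlapped, and the log2 fold change of 0.19 did not pass (edgeR adjusted p 0.284). Without the library labelled control 3 it was 0.29, with an edgeR adjusted p of 0.0118, where 4.4% of all tested genes passed. Removal of the length trend left Cdkn1c at 0.13 (edgeR adjusted p 0.560). An antisense gene model, Gm44732, covers 30.7% of its exon bases. Kcnq1ot1, the paternal noncoding RNA that silences that domain, had 51.1, 56.1 and 89.7 CPM in cKO-labelled libraries, against 70.0, 62.3 and 67.9 CPM in control-labelled libraries. The library labelled cKO 3 stood apart for Kcnq1ot1, and the coefficient of variation was 32.0% in cKO-labelled libraries and 5.99% in control-labelled libraries. The log2 fold change of Kcnq1ot1 was -0.02 (edgeR adjusted p 0.979).

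In the Dlk1-Dio3 domain, Dio3 encodes the deiodinase that inactivates thyroid hormone and shields cone photoreceptors of the mouse from it. Dio3 had 59.1, 53.5 and 40.8 CPM in cKO-labelled libraries, against 39.0, 39.2 and 41.0 CPM in control-labelled libraries. The libraries labelled cKO 1 and 2 were above the rest, and cKO 3 lay within the control libraries. The log2 fold change of 0.36 (standard error 0.13) did not pass in edgeR (adjusted p 0.240), passed in DESeq2 (adjusted p 0.0145) and, without the library labelled cKO 3, was 0.51 (edgeR adjusted p 0.0020). Of all genes with an adjusted p in DESeq2, 6.8% passed, and 0.154% of tested genes passed in edgeR without cKO 3. Removal of the length trend left Dio3 at 0.30 (edgeR adjusted p 0.447).

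The maternal noncoding RNAs of that domain, which host small nucleolar RNAs and microRNAs, are Meg3, Rian and Mirg. Meg3 had 118, 100.2 and 149 CPM in cKO-labelled libraries, against 178, 137 and 124 CPM in control-labelled libraries. Rian was even across libraries, with 108 to 123 CPM in cKO-labelled libraries and 114 to 118 CPM in control-labelled libraries. Mirg had 7.90 to 10.8 CPM in cKO-labelled libraries and 9.53 to 12.3 CPM in control-labelled libraries. The groups overlapped in all 3, and the log2 fold changes were -0.26, -0.03 and -0.20, with edgeR adjusted p-values of 0.672, 0.795 and 0.486. Meg3, Rian and Mirg did not have the same library order, with control 1 highest for Meg3 and Mirg and cKO 3 highest for Rian.

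Igf2r, the maternal receptor that carries Igf2 protein to lysosomes, had 93.2, 80.5 and 88.4 CPM in cKO-labelled libraries, against 116, 105 and 91.5 CPM in control-labelled libraries. The library labelled cKO 1 was above control 3, so the groups overlapped by that pair. The log2 fold change of -0.25 (standard error 0.09) did not pass in edgeR (adjusted p 0.234). It passed in DESeq2 (adjusted p 0.0294) and in edgeR without the library labelled control 3, where it was -0.34 (adjusted p 0.0042) and 4.4% of all tested genes passed. Removal of the length trend left Igf2r at -0.19 (edgeR adjusted p 0.310). The authors' deposited table lists Igf2r at 0.29 with an adjusted p of 0.0163, one of 3 imprinted genes past 0.05 there, of 23 with an adjusted p. The others in that table are Nnat at -0.14 (adjusted p 0.0383) and Grb10 at 0.15 (adjusted p 0.0467), and 8.97% of all genes with an adjusted p in it passed. Airn, the paternal antisense RNA that silences Igf2r, was near the floor of detection at 0.59, 0.33 and 0.24 CPM in cKO-labelled libraries, against 0.25, 0.65 and 0.59 CPM in control-labelled libraries (log2 fold change -0.36, edgeR adjusted p 0.779).

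In the Peg3 domain the zinc finger gene Peg3 had 143, 134 and 140 CPM in cKO-labelled libraries, against 155, 154 and 151 CPM in control-labelled libraries. The groups did not overlap, and the log2 fold change was -0.14 (standard error 0.05, edgeR adjusted p 0.132). Peg3 has 13324 bases of exon, and with the length trend removed its log2 fold change was -0.04. Usp29, a ubiquitin protease that starts on the opposite strand of the same promoter, was at -0.06 with overlapping groups. Zim1, a maternal zinc finger gene, was at -0.23 (standard error 0.18), with 2.84 to 3.44 CPM in cKO-labelled libraries and 3.10 to 4.68 CPM in control-labelled libraries.

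The Peg10-Sgce domain of chromosome 6 also held no gene that passed. Peg10, a retrotransposon-derived gene of the placenta, had 50.8, 45.0 and 38.1 CPM in cKO-labelled libraries, against 53.6, 51.6 and 45.7 CPM in control-labelled libraries, log2 fold change -0.17 (edgeR adjusted p 0.461). Ppp1r9a, which encodes neurabin, a binder of actin and protein phosphatase at synapses, had 144, 144 and 146 CPM in cKO-labelled libraries, against 154, 149 and 152 CPM in control-labelled libraries. The groups of Ppp1r9a did not overlap, at a log2 fold change of -0.07 that was 0.04 with the length trend removed. Sgce, epsilon-sarcoglycan, was at 0.12 (edgeR adjusted p 0.394). Asb4, an ankyrin repeat protein of ubiquitin ligases, had 1.80, 1.62 and 1.11 CPM in cKO-labelled libraries, against 1.67, 2.05 and 1.90 CPM in control-labelled libraries, log2 fold change -0.31 (edgeR adjusted p 0.585).

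The most abundant imprinted genes differed by small amounts. Nnat had 1241, 1223 and 1207 CPM in cKO-labelled libraries, against 1112, 1075 and 1138 CPM in control-labelled libraries. The groups did not overlap, and the log2 fold change of 0.14 (standard error 0.05) did not pass in edgeR (adjusted p 0.141) and passed in DESeq2 (adjusted p 0.0224). Blcap, the gene in whose intron Nnat lies, was at 0.00 with a biological coefficient of variation of 4.89%. With the length trend removed Nnat, which has 1829 bases of exon, was at 0.08.

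Gnas had 1114, 1105 and 1037 CPM in cKO-labelled libraries, against 1034, 1075 and 1123 CPM in control-labelled libraries, log2 fold change 0.01 (edgeR adjusted p 0.953). Grb10 had 1103, 1042 and 901 CPM in cKO-labelled libraries, against 1130, 1085 and 1027 CPM in control-labelled libraries, log2 fold change -0.09 (edgeR adjusted p 0.538). Plagl1 had 559, 551 and 506 CPM in cKO-labelled libraries, against 620, 551 and 532 CPM in control-labelled libraries, log2 fold change -0.08 (edgeR adjusted p 0.578). All 3 had overlapping groups, and Grb10 and Plagl1 were lowest in the library labelled cKO 3.

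Among the genes at loci of their own, Nap1l5, a relative of nucleosome assembly proteins, had 7.24, 7.36 and 7.78 CPM in cKO-labelled libraries, against 5.44, 7.13 and 6.15 CPM in control-labelled libraries. The amino acid transporter Slc38a4 had 5.87, 5.49 and 5.53 CPM in cKO-labelled libraries, against 5.40, 5.08 and 4.81 CPM in control-labelled libraries. Neither gene's groups overlapped, and the log2 fold changes of 0.26 for Nap1l5 (edgeR adjusted p 0.321) and 0.14 for Slc38a4 (edgeR adjusted p 0.655) did not pass. The remaining genes were Mest (-0.10), Zdbf2 (-0.11), the splicing factor relative Zrsr1 (0.05) and Impact, a regulator of the kinase GCN2 (0.01), all with overlapping groups. Antisense gene models cover 23.1% of the exon bases of Mest (Copg2), 14.3% of Usp29 (Zim3), 13.1% of Gnas (Gm20721) and 9.17% of Zrsr1 (Commd1), which makes their counts uncertain.

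The parental copy in use was not measured in these retinas, so genes are grouped by the copy known from mouse. The 10 tested genes listed as maternally expressed had 1 higher and 9 lower means in cKO-labelled libraries, with a median log2 fold change of -0.14. Among them, Meg3, Rian and Mirg are neighbours in the same domain. The 22 genes listed as paternally expressed had 11 higher and 11 lower, with a median of -0.01. The maternal genes are longer, with a median of 8697 exon bases, where the paternal genes have 4562. Length moved with the fold changes: Spearman's rho between exon length and log2 fold change was -0.27 over 17245 tested genes and -0.44 over the 35 imprinted genes, which share the same 6 libraries. Imprinted genes shorter than the median of tested genes had 8 higher and 3 lower means, and those at or above it 5 higher and 19 lower. With the length trend removed, the maternal genes had 4 higher and 6 lower means and a median of -0.11, and all 35 had 16 higher and 19 lower, with a median of -0.01.

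Outside the 37, a list of 51 further imprinted genes had 34 tested, with 16 higher and 18 lower means in cKO-labelled libraries and a median log2 fold change of 0.00. Past the threshold in edgeR as used throughout were 2 of the 34, where 0.781% of all tested genes passed. Cobl, an actin nucleator, fell to 27.2, 25.7 and 24.0 CPM in cKO-labelled libraries, against 31.7, 33.3 and 32.6 CPM in control-labelled libraries (log2 fold change -0.34, edgeR adjusted p 0.031). Trappc9, a subunit of a vesicle trafficking complex, fell to 59.0, 59.5 and 59.3 CPM in cKO-labelled libraries, against 68.1, 71.0 and 66.5 CPM in control-labelled libraries (log2 fold change -0.21, edgeR adjusted p 0.047). Neither passed with the length trend removed, where the log2 fold changes were -0.30 and -0.17 (edgeR adjusted p 0.074 and 0.131). Cobl lost its call without control 2 (-0.33), cKO 2 (-0.35) or cKO 3 (-0.30), and Trappc9 without any library but control 3, at -0.21 to -0.18. Both calls also ended without robust estimation (adjusted p 0.114 each in edgeR) and in limma-voom (adjusted p 0.0974 and 0.132) and without both libraries numbered 2 (0.714 each, edgeR), and that of Trappc9 with upper quartile scaling (0.0528) and with labelled sex as a covariate (0.0604). Both passed with the sexes exchanged between groups (edgeR adjusted p 0.010 for Cobl and 0.028 for Trappc9), where 4.32% of all tested genes did.

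Of 21 tested genes that lay down, keep or read imprints, 5 had a higher and 16 a lower mean in cKO-labelled libraries, with a median log2 fold change of -0.06. After removal of the length trend, 5 were again higher and 16 lower, with a median of -0.03, and none passed. Past the threshold in edgeR as used throughout was 1 of the 21, where 0.781% of all tested genes passed. Tet2, an enzyme that oxidizes methylated cytosine, fell to 76.0, 72.6 and 79.5 CPM in cKO-labelled libraries, against 88.2, 85.9 and 88.3 CPM in control-labelled libraries (log2 fold change -0.20, edgeR adjusted p 0.047). With the length trend removed its log2 fold change was -0.08 (adjusted p 0.50, edgeR). The call also ended without control 1 (-0.20), control 2 (-0.21), cKO 2 (-0.17) or cKO 3 (-0.23). At log2 fold changes close to -0.20 it ended with upper quartile scaling (adjusted p 0.0540 in edgeR), the filter at 1 CPM (0.0611), no robust estimation (0.118) and limma-voom (0.132), and at -0.18 without both libraries numbered 2 (0.714 in edgeR).

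Of 17 tested genes of the insulin-like growth factor pathway, 4 had a higher and 13 a lower mean in cKO-labelled libraries, with a median of -0.10. These genes have a median of 8159 exon bases, where all tested genes have 3923. After removal of the length trend, 6 had a higher and 11 a lower mean, with a median of -0.06, and none passed. In the edgeR analysis used throughout none passed, and 7 had an unadjusted p under 0.05, where 16.5% of all tested genes did. In DESeq2 3 passed, where 6.8% of all genes with an adjusted p there did. In edgeR 5 passed with no filter, 6 with the exchanged sexes and 2, Igf1r and Irs1, without the library labelled control 3, where 2.47%, 4.32% and 4.4% of all tested genes passed. The largest fold changes of the list were in genes of low level: Pappa, a protease that frees the growth factors from their binding proteins, was at 1.53, 1.91 and 1.38 CPM in cKO-labelled libraries, against 2.09, 2.18 and 2.91 CPM in control-labelled libraries (-0.57, edgeR adjusted p 0.207). Igfbp7, a related binding protein gene, was at 0.470, 0.540 and 0.790 CPM in cKO-labelled libraries, against 0.377, 0.886 and 1.35 CPM in control-labelled libraries (-0.53, edgeR adjusted p 0.576). The libraries overlapped for Igfbp7 and did not for Pappa. Igfbp2 was at 257, 244 and 214 CPM in cKO-labelled libraries, against 192, 156 and 196 CPM in control-labelled libraries (log2 fold change 0.39, edgeR adjusted p 0.131). Igf1r, the receptor that transmits the Igf2 signal, was at 444, 395 and 391 CPM in cKO-labelled libraries, against 552, 506 and 429 CPM in control-labelled libraries (-0.27, edgeR adjusted p 0.158). The groups did not overlap for Igfbp2, and for Igf1r cKO 1 lay above control 3.

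Of the 9 partners of the Magel2 protein in its ubiquitin ligase, the retromer and the WASH complex, 5 had a higher and 4 a lower mean in cKO-labelled libraries. In edgeR as used throughout none passed, and 2 had an unadjusted p under 0.05, where 16.5% of all tested genes did. The retromer subunit Vps35 was at 139, 143 and 135 CPM in cKO-labelled libraries, against 115, 125 and 124 CPM in control-labelled libraries (log2 fold change 0.20, edgeR adjusted p 0.055). The groups did not overlap for Vps35. It passed in DESeq2, as 6.8% of all genes with an adjusted p there did. In edgeR Vps35 passed with no filter, with the exchanged sexes, with the length trend removed and without the library labelled control 3.

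**Figure D5:**
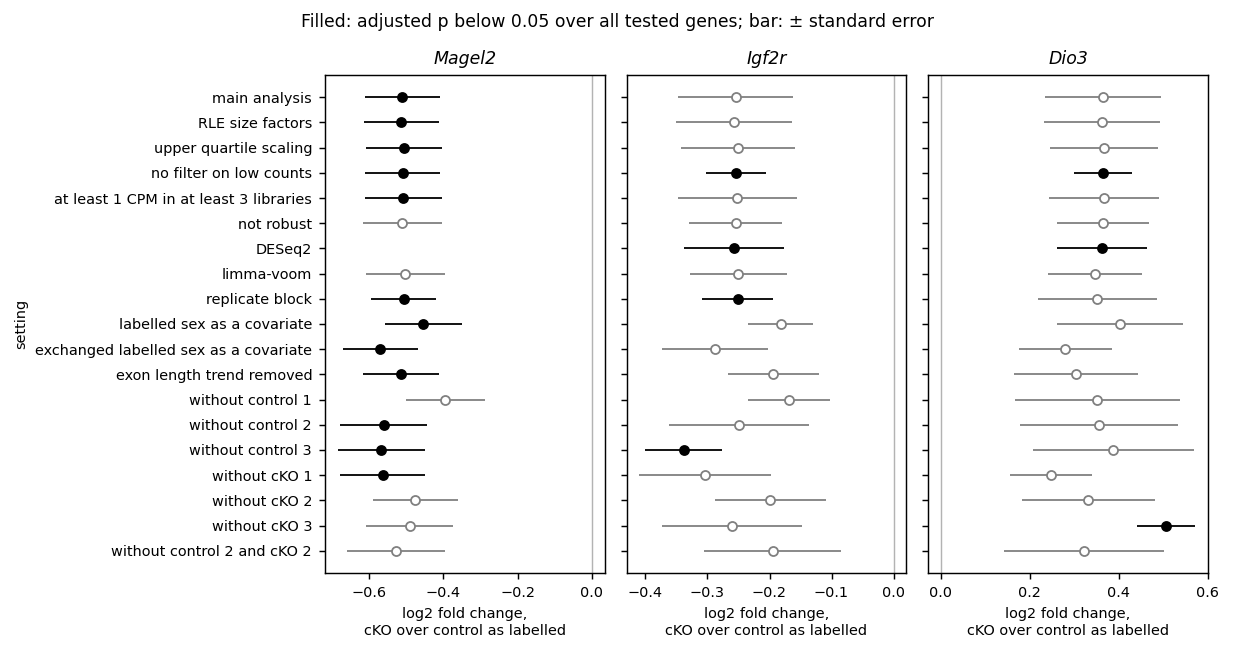
Log2 fold change (libraries labelled cKO over labelled control, ± 1 standard error) of Magel2, Igf2r and Dio3 under each setting, filled where the adjusted p over all tested genes is under 0.05. Magel2 keeps its sign and loses its call in 6 settings, DESeq2 gave it no adjusted p, and Igf2r and Dio3 pass in some settings only.

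The median biological coefficient of variation of the tested imprinted genes was 8.22%, where that of all tested genes was 8.72%. Igf2, Dlk1, Kcnq1ot1 and Airn lay in the top decile of tested genes, and Ube3a, Rian and Blcap in the bottom decile.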

How the data were processed

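Retinal RNA of 6 animals was sequenced after depletion of ribosomal RNA, with a directional kit, per the labels' protocols. The submitters' processing notes name mm10, trimming with cutadapt 2.8, alignment with STAR 2.7.6a, counting with featureCounts 1.5.1 and testing with DESeq2 1.32.0, with settings not given in the sources used here. The authors deposited raw counts of reads per gene. Their deposited comparison table lists for each gene the authors' mean normalized signal, log2 fold change and standard error, the test score, and p-values before and after adjustment, and was copied without change. Names came from that table, and positions and exon lengths from GENCODE M21, on the same build.

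Counts were compared with edgeR 4.0.16 (R 4.3.3): filterByExpr, TMM scaling, genotype alone as the design, quasi-likelihood tests with robust estimation, and p-values adjusted by Benjamini-Hochberg over 17275 genes at 0.05. CPM uses TMM-scaled library sizes, with 23707761 to 25714620 counts per library. The libraries are separate animals of 1 litter. No pair within a group was a duplicate (chi-square over degrees of freedom at least 7.39). The length trend was removed by offsets per library (lowess, span 0.3). Alternatives were RLE and upper quartile scaling, 2 other filters, no robust estimation, DESeq2 1.42.0, limma-voom (limma 3.58.1), a replicate block, sex as labelled or exchanged between groups, the length offsets, and leaving out libraries. The fitting script was tested on simulated counts.

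The members and lists were chosen with earlier results of these data known. Named with values in every library are genes past the threshold, the 6 others of largest fold change, the 5 of highest CPM, the cluster of Magel2, and the 4 of largest coefficient of variation. From each further list, genes past the threshold are named, or else up to 2. Cdkn1c, Igf2r, Peg3, Peg10, Ppp1r9a, Slc38a4, Igfbp2 and Igf1r were added after their values were seen, as were the genes that share the library order of Igf2.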

Additional observations from a re-analysis of the deposited data

How the results depend on the processing

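The number of imprinted genes past the threshold was 1 in the analysis as reported and under RLE and upper quartile scaling, a filter at 1 CPM, labelled sex as a covariate and removal of the length trend. It was 4 with no filter on low counts, 3 in DESeq2 and 2 with the exchanged sexes. It was 0 without robust estimation (7 at an unadjusted p under 0.05), in limma-voom (8 unadjusted) and without both libraries numbered 2 (2 unadjusted). Leaving out 1 library at a time gave 0 to 3. For all tested genes the number was 135, and it was 742 with no filter, 83 at 1 CPM, 10 without robust estimation, 514 in DESeq2, 13 in limma-voom, 746 with the exchanged sexes, 38 with the length trend removed, 9 without both libraries numbered 2, and 19 to 778 with 1 library left out. The cause of these shifts was not tested.

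Deviations from the group means correlated at 0.09, -0.05 and 0.20 between samples with the same number. Over all pairs of a cKO-labelled and a control-labelled library these values ran from -0.22 to 0.20. With 3 libraries per group, whose deviations balance out, this cannot tell whether the numbers mark shared handling. With a replicate block 4 of the 35 tested imprinted genes passed, namely Igf2r, Magel2, Nnat and Peg3, where 1065 of all 17275 tested genes passed. So did 3 of the 34 further imprinted genes and 6 of the 21 genes that lay down, keep or read imprints. Of the insulin-like growth factor list 5 of 17 passed, and of the 9 partners of Magel2 1 passed, Vps35.

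Of the 12 imprinted genes followed through 16 to 18 settings each (DESeq2 gave some no adjusted p, and Airn did not reach the filter at 1 CPM), Dlk1 changed sign in 1, with a log2 fold change of 0.0014 without the library labelled control 3, and ranged down to -0.997 with 1 library left out. Magel2 ranged from -0.57 to -0.39. Peg10 passed with the exchanged sexes (edgeR adjusted p 0.0378). Genes at a few CPM, such as Airn and Asb4, are limited by depth, and with 3 animals per group of 1 litter small differences could not be separated from the spread between animals.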
